A study of Mus musculus with 4 samples.

Results

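Snai1 encodes a zinc-finger repressor, and its loss was examined here in day 5 embryoid bodies, aggregates of mouse embryonic stem cells that differentiate without added direction. The comparison used 2 of the 4 arrays of the study, 1 labelled Snai1 knockout and 1 control array with the genotype F/F. The other 2 arrays held week 6 teratomas of the same genotypes and serve below only for comparison. Members were all non-control probe sets that name 1 gene, 34945 of 45037, and they named 18193 genes.

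Both cell populations were embryonic stem cells grown first as hanging drops and then in suspension in a medium for spontaneous differentiation. RNA was purified on columns and labelled with biotin from 250 ng of total RNA. The labels do not say what the F/F genotype denotes, whether the knockout cells are 1 clone, whether feeder cells were present, or how many embryoid bodies gave each RNA. There is 1 array a side, so the spread between cultures is unknown, no test was possible, and every value below describes these 2 RNA samples.

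Snail proteins bind E-box sequences in promoters and switch off epithelial genes, of which E-cadherin is the best known. The switch is a step of epithelial-mesenchymal transition, in which cells lose their junctions, leave an epithelial sheet and take on a migratory form. In the mouse gastrula this happens at the primitive streak, where epiblast cells become mesoderm and definitive endoderm. Embryoid bodies pass through comparable states without a body plan, and they also form yolk sac-like blood, vessels and visceral endoderm.

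Values are log2 signals, and a difference is the knockout minus the control on that scale. Signals under an array's median over non-control probe sets were raised to that median, called the floor here, which was 4.71 for the control and 4.73 for the knockout. Genes that reached the floor on either array, 12282 of them, were called measured. Where only 1 array passed, the fold is a lower bound and is written with "at least". A gene that passed through 1 array could only differ toward that array, so list counts that rest on many such genes are given again over genes above the floor on both arrays. At a threshold of 2-fold, 268 measured genes were higher in the knockout, 2.18% of them, and 489 were lower, 3.98%. The quartiles of all differences were -0.20 and 0.24, and the median was 0.03.

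**Figure D1:**
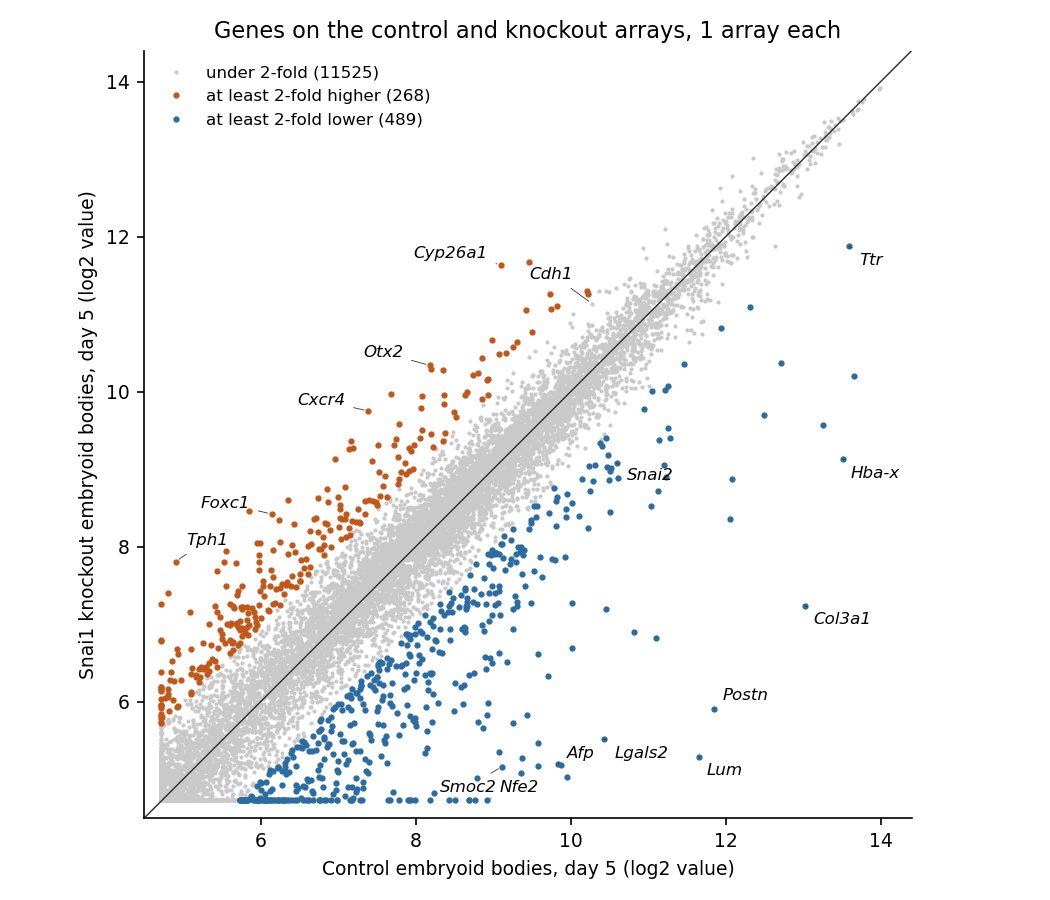
Log2 values of the 12282 measured genes on the control array (horizontal axis) and the Snai1 knockout array (vertical axis) of day 5 embryoid bodies, values under the floor drawn at the floor, 1 point a gene. The 489 lower genes (blue) reach farther from the diagonal than the 268 higher ones (orange), and the points along the lower edge are genes above the floor in the control only.

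Of the genes chosen as marks of embryoid bodies, Pou5f1, Sox2 and Kdr were well above the floor on both arrays. Afp, another of them, read 9.84 in the control and 5.20 in the knockout, and T is not given here. The pluripotency gene Pou5f1 read 8.40 in the control and 8.84 in the knockout, the neural and epiblast gene Sox2 9.07 in the control and 9.49 in the knockout, and the vascular receptor gene Kdr 8.33 in the control and 8.10 in the knockout. The neuron gene Tubb3 lay next to the floor at 4.93 in control and 4.79 in knockout cells, and both Dcx, a gene of migrating neurons, and Ptprc, the leukocyte antigen, lay under the floor on both arrays. As a sign of RNA quality, the 3' probe set of Gapdh exceeded the 5' one by 0.17 in the control and by 0.10 in the knockout.

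The knockout was checked first on the gene itself and on its family. Snai1 read 4.78 in the control and 3.45 in the knockout, so it passed the floor only in the control, and by a margin too small for a fold to be given. The labels do not give the part of the gene that was deleted or its place relative to the probes, so this value does not check the label. Snai2, the related repressor of neural crest and mesoderm, read 10.59 in the control and 9.07 in the knockout, 2.86-fold lower. Snai3 differed by 0.34. The other drivers of mesenchymal change did not differ in 1 direction. Of 15 measured transition factors, 4 were lower and 1 higher, with a median of -0.05. Twist2, a mesenchymal helix-loop-helix factor, read 8.49 in the control and 5.88 in the knockout, whereas its close relative Twist1 read 8.05 in the control and 8.37 in the knockout. The zinc-finger factor Zeb2 read 8.02 in the control and 6.73 in the knockout, 2.46-fold lower, and Zeb1 differed by -0.57. The fourth lower member was Tgfb1i1, a focal adhesion adaptor gene, at 8.42 in control and 7.15 in knockout cells. The higher member was the forkhead factor Foxc2, 3.28-fold.

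Genes of proteins with which Snail works mostly differed by less than 2-fold. Of 19 measured cofactors and regulators, 0 were higher and 1 lower. This is near the shares of all measured genes, 2.18% higher and 3.98% lower. The demethylase gene Kdm1a differed by 0.17, the deacetylase genes Hdac1 and Hdac2 by 0.25 and 0.27, and the Polycomb genes Ezh2 and Suz12 by 0.10 and 0.09. The LIM adaptor gene Ajuba differed by 0.45. The exception was Lats2, a Hippo pathway kinase, at 6.55 in control and 5.47 in knockout cells, though another of its probe sets stood at 0.31.

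Genes that set epithelial identity were more often higher than lower in the knockout. Of 11 measured epithelial regulators, 4 were at least 2-fold higher and 1 lower, and 9 lay above 0, with a median of 0.64 against 0.03 for all measured genes. Ovol2, a zinc-finger factor that opposes mesenchymal change, read 6.73 in the control and 8.19 in the knockout, 2.75-fold higher. Klf5 read 7.53 in the control and 8.96 in the knockout, Elf3 5.88 in the control and 7.21 in the knockout, and the epithelial splicing factor gene Esrp1 8.52 in the control and 9.67 in the knockout. The grainyhead gene Grhl2, another keeper of epithelial junctions, differed by 0.82. The lower member was the Krüppel-like factor gene Klf4, at 8.47 in control and 7.16 in knockout cells.

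Tight junctions seal neighbouring epithelial cells, and claudins form their strands. Of 29 measured tight junction genes, 21 lay above 0, 4 were at least 2-fold higher and 1 lower, with a median of 0.37. Cldn23 read 6.36 in the control and 8.61 in the knockout, 4.75-fold higher, Cldn4 read 8.36 in the control and 10.28 in the knockout, and Cldn3 read 7.63 in the control and 8.64 in the knockout. Marveld3, a tight junction membrane protein, read 6.03 in the control and 7.50 in the knockout. Several members stood a little under the threshold, among them Cldn10 at 0.96, Cldn6 at 0.93 and Ocln, the gene of occludin, at 0.80. The scaffold gene Tjp1 differed by -0.05. The claudins did not all lean one way: Cldn2, a pore-forming claudin, read 6.94 in the control and 4.81 in the knockout, 4.38-fold lower, and the endothelial claudin Cldn5 is described with the vessels.

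Cadherins hold cells together, and their types differ between epithelium and mesenchyme. Cdh1, the gene of E-cadherin, read 10.28 in the control and 11.14 in the knockout, 1.81-fold higher, which is under the threshold. Cdh2, the gene of N-cadherin, differed by -0.08. Cdh11, a mesenchymal cadherin, read 10.51 in the control and 8.45 in the knockout, 4.18-fold lower, and Cdh6 read 9.0 in the control and 7.72 in the knockout. In the other direction Pcdh8, a protocadherin of the primitive streak and paraxial mesoderm, read 7.17 in the control and 9.36 in the knockout, 4.56-fold higher. Over the 21 measured cadherins, 3 were higher and 4 lower around a median of -0.08. The catenin and linker list had a median of 0.17, with Ctnnb1, the gene of beta-catenin, at 0.17 and its other 2 measured probe sets at 0.75 and 1.68. In it Epcam, an epithelial adhesion gene, differed by 0.92, and Ctnnd2, a neural catenin, read 6.42 in the control and 5.28 in the knockout. Desmosome and simple keratin genes had a median of 0.15. Krt8 and Krt18, the keratins of simple epithelium, differed by 0.15 and -0.07.

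**Figure D2:**
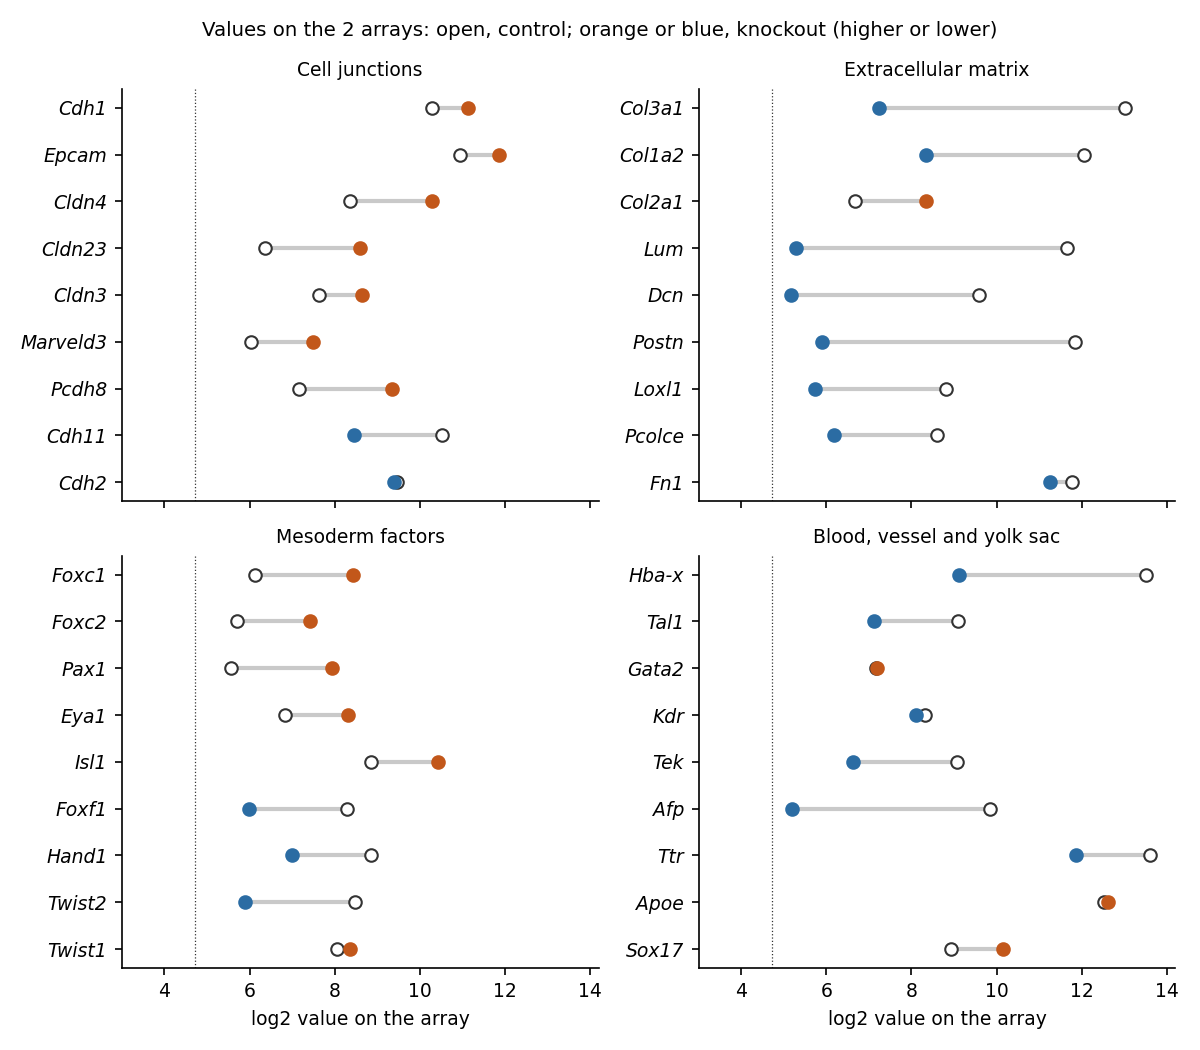
Log2 values of 36 genes on the control array (open circles) and the Snai1 knockout array (orange where higher, blue where lower), in 4 groups, with the floor as a dotted line. Claudins, paraxial factors, Col2a1 and Sox17 lie to the right in the knockout. Col3a1, Col1a2, Hba-x and Tek lie to the left, while Cdh2, Gata2, Kdr and Apoe nearly coincide.

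Promoters were then read for the E-box that Snail proteins bind, since the deposited values alone do not show binding. The letters searched were CAGGTG and CACCTG, which are the same site on opposite strands, in RefSeq promoters (assembly GRCm38.p6) of 300 bases, 250 before and 50 after each start. The sequences shown are the 250 bases before the start for the 4 junction and epithelial genes with the most matches among those at least 2-fold higher, with the E-box in capitals and the letters given 5′ to 3′ on the gene's strand. Cldn4 lies at chr5:134946935-134947184, Celsr2, an atypical cadherin of planar cell polarity, at chr3:108415580-108415829, Cdhr1, a photoreceptor cadherin, at chr14:37098348-37098597 and Elf3 at chr1:135258473-135258722, all on the minus strand.
Cldn4: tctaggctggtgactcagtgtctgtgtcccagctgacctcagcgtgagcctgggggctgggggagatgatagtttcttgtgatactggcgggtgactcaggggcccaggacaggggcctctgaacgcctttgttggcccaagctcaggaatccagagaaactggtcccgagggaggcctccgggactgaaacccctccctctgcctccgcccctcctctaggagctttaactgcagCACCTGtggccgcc
Celsr2: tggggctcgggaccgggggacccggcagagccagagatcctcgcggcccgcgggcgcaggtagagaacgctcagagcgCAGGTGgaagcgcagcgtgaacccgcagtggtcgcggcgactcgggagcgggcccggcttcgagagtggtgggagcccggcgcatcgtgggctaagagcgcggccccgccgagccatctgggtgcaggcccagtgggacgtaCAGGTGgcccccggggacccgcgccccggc
Cdhr1: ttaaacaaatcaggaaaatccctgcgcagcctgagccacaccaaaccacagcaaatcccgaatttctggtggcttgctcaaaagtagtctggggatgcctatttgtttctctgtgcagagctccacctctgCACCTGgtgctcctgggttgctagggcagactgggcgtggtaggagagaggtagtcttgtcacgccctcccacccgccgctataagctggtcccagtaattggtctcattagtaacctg
Elf3: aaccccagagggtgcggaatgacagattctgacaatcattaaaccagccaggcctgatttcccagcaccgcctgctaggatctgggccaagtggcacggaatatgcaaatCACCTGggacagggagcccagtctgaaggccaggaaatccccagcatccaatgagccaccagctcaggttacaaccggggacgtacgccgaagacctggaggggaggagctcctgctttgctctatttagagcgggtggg
The E-box of Cldn4 begins 14 bases before the start, and those of Celsr2 172 and 30 bases before it. In these genes the knockout differed from the control by 1.92, 1.01, at least 1.43 and 1.33 on the log2 scale. The rule allowed 15 genes, the members of the junction, epithelial and transition factor lists at least 2-fold higher plus Cdh1 and Snai2. Of these, 8 had a promoter in the table and 5 a match, and Cdh1 and Snai2 had no promoter there.

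The site was more frequent in promoters of higher genes. It stood in 83 of 280 promoters of genes at least 2-fold higher, 29.6%, in 73 of 458 promoters of lower genes, 15.9%, and in 18.2% of the 12739 promoters of all measured genes. Over the whole promoter table the share was 20.2%. Counted by gene, 36.3% of higher, 18.8% of lower and 21.3% of measured genes had a match. The share was near 20% in every group of genes below a difference of 0.5 and stepped up above it, to 30.8% between 0.5 and 1 and 36.1% between 1 and 1.5. A different E-box, the palindrome CAGCTG, stood in 19.6% of higher and 15.5% of measured promoters, CAGATG with its reverse strand in 13.9% and 11.5%, and the palindrome CACGTG in 6.43% and 9.73%. GC content was 61.1% in promoters of higher genes and 60.9% in those of measured genes. The shares are a description without a test, and a match is a string of letters and not a site shown to be bound. Lists differed in ways that did not follow their medians: 14 of 21 tight junction genes with a listed promoter had the site, 10 of 23 definitive endoderm genes, but 0 of 12 neural plate, 1 of 13 ERK feedback and 2 of 13 Nodal and organizer genes. Among lists with lower medians it was 0 of 13 fibroblast markers and 8 of 19 cardiac contractile genes.

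**Figure D3:**
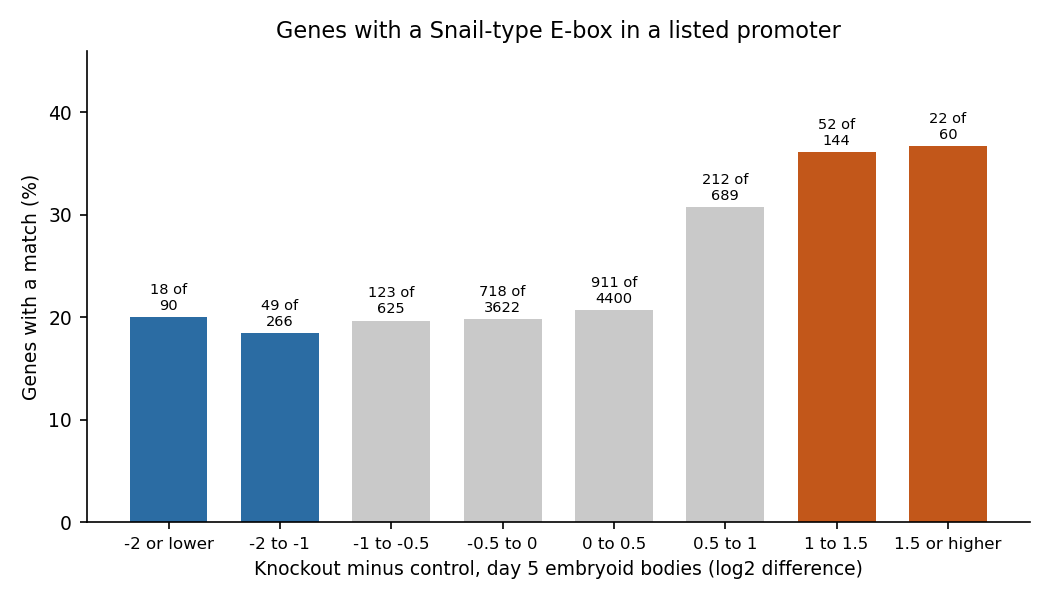
Share of genes with a Snail-type E-box in at least 1 listed promoter (vertical axis, percent), by knockout minus control log2 difference in day 5 embryoid bodies (horizontal axis), with genes matched and genes in the group above each bar. The share is near 20% in the 5 groups below 0.5 and 30.8% to 36.7% in the 3 groups above.

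Genes of the extracellular matrix, the mesh of fibres that mesenchymal cells secrete, were among the lowest. Of 8 measured fibrillar collagen genes, 5 were lower and 1 higher, with a median of -2.49. With the floor at percentile 25, which adds chains of low signal, the median was -1.09, and with no floor it was -0.15. Col1a2, a chain of type I collagen, read 12.06 in the control and 8.35 in the knockout, 13.1-fold lower, its partner Col1a1 read 9.57 in the control and 6.62 in the knockout, and Col3a1, the type III chain, read 13.02 in the control and 7.24 in the knockout. The minor chains Col5a2 and Col5a1 differed by -4.93 and -2.02, and Col11a1 by -0.15. Col2a1, the chain of cartilage and of notochord and early somite, went the other way at 6.68 in control and 8.35 in knockout cells. The 3 measured chains of collagen VI, a bead-like fibril around cells, were all lower: Col6a1 read 7.12 in the control and 5.24 in the knockout, Col6a2 6.76 in the control and 5.63 in the knockout, and Col6a3 8.0 in the control and 4.30 in the knockout, at least 9.62-fold lower. Among basement membrane collagens Col4a1 and Col4a2 differed by -0.36 and -0.51, and Col4a5 read 9.38 in the control and 7.64 in the knockout.

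Enzymes that fold, trim and crosslink collagen were mostly below 0. Of 20 measured, 6 were lower and 0 higher, and 16 lay below 0, with a median of -0.72. Loxl1, which crosslinks elastic fibres and collagen, read 8.81 in the control and 5.73 in the knockout, 8.41-fold lower. Pcolce, which helps to trim procollagen ends, read 8.59 in the control and 6.19 in the knockout. The prolyl hydroxylase genes P3h1 and P4ha2 differed by -1.24 and -1.09, the lysyl hydroxylase gene Plod2 by -1.10 and the collagen chaperone gene Serpinh1 by -0.96. The secretory regulators Creb3l1 and Kdelr3, which belong to the unfolded protein list, read 8.66 in the control and 7.23 in the knockout and 9.30 in the control and 7.90 in the knockout.

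Some proteoglycans and adhesive glycoproteins of the matrix were lower. Of 37 measured matrix glycoprotein genes, 15 were lower and 1 higher, with a median of -0.55. The calcium-binding matrix gene Smoc2 read 9.11 in the control and 5.16 in the knockout, 15.5-fold lower, Ccn4, a Wnt-induced matricellular gene, read 9.08 in the control and 5.36 in the knockout, and Tgfbi, a collagen-binding gene induced by TGF-beta, read 10.01 in the control and 7.27 in the knockout. Tnc, the gene of tenascin C, read 7.96 in the control and 5.76 in the knockout, and Postn, the gene of periostin, read 11.85 in the control and 5.91 in the knockout. Fn1, the gene of fibronectin, differed by -0.50 on the chosen probe set and -1.16 on the other one measured, and the elastic fibre genes Fbn2 and Mfap2 by 0.43 and 0.19. The higher member, Frem2, belongs to the basement membrane of developing skin and read 7.27 in the control and 8.31 in the knockout. The small leucine-rich proteoglycan genes Lum and Dcn read 11.65 in the control and 5.29 in the knockout and 9.58 in the control and 5.17 in the knockout, whereas Bgn differed by 0.40. The 8 measured genes of that proteoglycan list held 3 lower and 0 higher, with a median of -0.16. Among the 5 above the floor on both arrays 2 were lower and 0 higher, with a median of -0.24. The third lower gene, Fmod, read 6.26 in the control and 4.23 in the knockout, at least 2.88-fold lower. Its 4 other measured probe sets stood between -0.18 and -0.07, and with the floor at percentile 65 Fmod was no longer past 2-fold.

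Basement membrane genes, made by epithelia, vessels and endoderm alike, differed by member. The laminin chain of vessels, Lama4, read 6.66 in the control and 4.84 in the knockout, Lamb2 read 7.58 in the control and 6.08 in the knockout, and Nid1, which links laminin to collagen IV, read 9.94 in the control and 8.38 in the knockout. The early embryonic chains Lama1, Lamb1 and Lamc1 differed by -0.90, -0.94 and -0.29, and the epithelial chains Lama5 and Lamb3 by 0.58 and 0.92. The median over 12 genes was -0.59. Integrins, which bind matrix, had 3 lower members of 16 and a median of -0.01. The lower ones were the platelet pair Itgb3, at 9.26 in control and 5.73 in knockout cells, and Itga2b, at 8.21 in control and 5.73 in knockout cells, and the laminin receptor chain Itga3, at 9.03 in control and 7.91 in knockout cells. The broadly used chains Itgb1, Itgav and Itga5 differed by 0.09, 0.03 and 0.33. Of 26 measured proteases and inhibitors of the matrix, 6 were lower and 1 higher. Adamts1 read 8.94 in the control and 7.04 in the knockout, Adam12 8.63 in the control and 6.90 in the knockout and the inhibitor gene Timp1 7.86 in the control and 6.35 in the knockout, and the higher gene was Plaur, the urokinase receptor, at 6.28 in control and 7.52 in knockout cells.

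Markers of embryonic fibroblasts, a cell type used as feeder layers and also formed by mesoderm, were lower along with the matrix genes. Of 19 measured markers, 12 were lower and 0 higher, with a median of -1.74. The sum of their linear signals was 15.0-fold lower in the knockout, 23625 in the control and 1572 in the knockout. Most of the control sum came from Col3a1, Col1a2, Postn and Lum, so it is not separate from the matrix result. The platelet-derived growth factor receptor genes Pdgfrb and Pdgfra read 9.42 in the control and 7.50 in the knockout and 9.61 in the control and 7.87 in the knockout, and Islr, a fibroblast surface gene, 7.66 in the control and 3.94 in the knockout, at least 7.63-fold lower. Thy1 lay at 4.40 in control and 4.81 in knockout cells, S100a4 differed by -0.26, and Prrx1, a limb and head mesenchyme factor, by 0.76. The list shares Lum, Dcn, Postn, Col1a1, Col1a2 and Col3a1 with the matrix lists. The part of fibroblasts in the matrix result was not tested. In bulk RNA fewer cells of a type and less RNA per cell cannot be told apart, which applies to every cell type below.

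Contractile and cytoskeletal genes divided by member. The smooth muscle actin gene Acta2 read 12.71 in the control and 10.37 in the knockout, 5.06-fold lower, Tagln read 10.47 in the control and 9.03 in the knockout, and Actg2, a smooth muscle actin of gut, 6.81 in the control and 4.65 in the knockout, at least 4.23-fold lower. Tropomyosin and calponin genes stayed close, with Tpm1 at 0.23, Tpm2 at -0.47 and Cnn1 at 0.0037. Over 24 measured genes 4 were lower, with a median of -0.08. Cavin1, a coat protein of caveolae, read 8.14 in the control and 5.93 in the knockout, and Cavin2 7.79 in the control and 3.66 in the knockout, at least 8.32-fold lower, while the caveolin gene Cav1 differed by -0.63. Vim, the gene of vimentin, differed by -0.54 on the chosen probe set, while its other 2 measured probe sets, at -1.43 and -1.41, were past 2-fold lower.

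**Figure D4:**
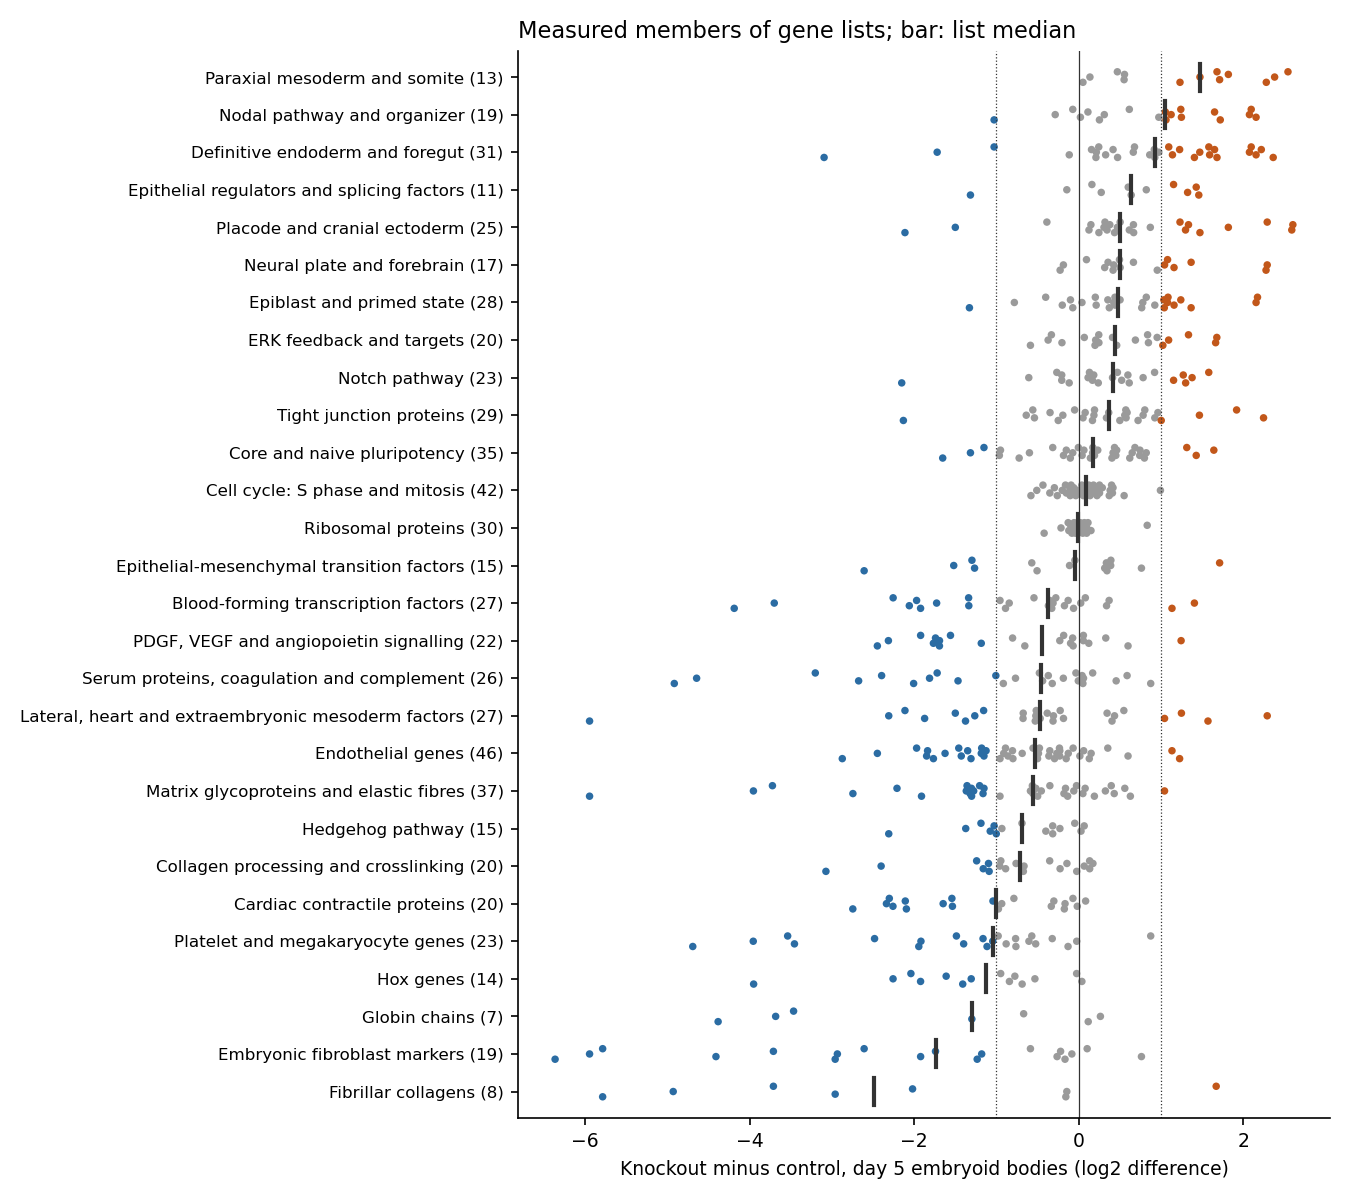
Knockout minus control log2 differences in day 5 embryoid bodies (horizontal axis) for the measured members of 28 gene lists (rows, with the number of members), orange at least 2-fold higher, blue at least 2-fold lower, black bars at list medians, dotted lines at 2-fold. Medians run from -2.49 for fibrillar collagens to 1.48 for paraxial mesoderm, and ribosomal and cell cycle genes cluster at 0.

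Mesoderm lists did not all lean the same way. Paraxial mesoderm, which gives rise to vertebrae and muscle, had a median of 1.48 over 13 measured genes. Of these 8 were at least 2-fold higher and 0 lower. Of its 26 genes on the array, another 13, among them Meox2, Uncx and Myf5, lay under the floor on both arrays. With the floor at percentile 25 the median was 0.57, and with no floor 0.30, as members of low signal then enter. The forkhead genes Foxc1 and Foxc2 read 6.14 in the control and 8.42 in the knockout and 5.71 in the control and 7.43 in the knockout. Pax1 and Pax9, paired-box genes of sclerotome and pharyngeal pouch, read 5.56 in the control and 7.94 in the knockout and 5.69 in the control and 7.38 in the knockout. Eya1, a phosphatase and transcriptional partner, read 6.83 in the control and 8.31 in the knockout, and Six4 read 5.98 in the control and 7.80 in the knockout. Alx1, a head mesenchyme factor, read 4.66 in the control and 7.25 in the knockout, at least 5.84-fold higher. Members that mark the segmented somite itself did not reach 2-fold: Tcf15 read 5.83 in the control and 5.97 in the knockout, Meox1 4.69 in the control and 5.27 in the knockout and Pax3 4.70 in the control and 5.18 in the knockout. Of the 13 measured genes, 6 were above the floor in the knockout only. Among the other 7 the count was 6 higher and 0 lower, with a median of 1.71.

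Several of these genes also mark cranial placodes, thickenings of head ectoderm that form sense organs. Of 25 measured placode genes, 8 were higher and 2 lower. Coch, a matrix gene of the inner ear, read 5.85 in the control and 8.45 in the knockout, Eya4 read 4.80 in the control and 7.40 in the knockout, and the Iroquois gene Irx5 read 7.68 in the control and 9.97 in the knockout. Spry1, counted among the higher ones, is an inhibitor of receptor signalling used at many sites and read 9.17 in the control and 10.50 in the knockout. The lower ones were the homeobox genes Pitx1, at 7.93 in control and 5.82 in knockout cells, and Msx1, at 8.99 in control and 7.49 in knockout cells. Neural plate genes included 6 higher and 0 lower of 17, with Hesx1, a forebrain and pituitary gene, at 5.53 in control and 7.80 in knockout cells, Zic2 at 6.12 in control and 7.49 in knockout cells and Sox3 at 6.56 in control and 7.72 in knockout cells. Pax6, of eye and forebrain, reached only 4.54 in the control and 5.07 in the knockout.

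Lateral and extraembryonic mesoderm, which form heart, body wall and yolk sac, had more lower than higher genes. Of 27 measured factors, 8 were lower and 4 higher, around a median of -0.47. Foxf1, a target of hedgehog in lateral mesoderm, read 8.29 in the control and 5.98 in the knockout, Hand1 8.86 in the control and 6.99 in the knockout and Tbx20 9.24 in the control and 8.08 in the knockout, and Tbx4, a gene of allantois and hind limb, 6.11 in the control and 3.71 in the knockout, at least 2.59-fold lower. Postn and the scaffold protein gene Ahnak, at 10.31 in control and 9.05 in knockout cells, are counted among the lower ones but encode no transcription factor. The higher ones included heart factors: Isl1, of the second heart field, read 8.86 in the control and 10.43 in the knockout, and Nkx2-5 read 6.20 in the control and 7.45 in the knockout. Gata4 and Gata6 differed by 0.35 and -0.31. Contractile genes of the heart were lower nevertheless, 10 of 20, with 0 higher and a median of -1.01. The ventricular light chain gene Myl2 read 8.14 in the control and 5.40 in the knockout, Actc1 11.24 in the control and 8.90 in the knockout, Ttn 6.97 in the control and 4.87 in the knockout and the troponin gene Tnnt2 10.25 in the control and 8.72 in the knockout, while Myh7 differed by -0.07.

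Hox genes, which assign position along the trunk, were lower in 7 of 14 measured cases and higher in 0. Of the 14, 7 were above the floor on both arrays, with 2 of them lower and a median of -0.84, 6 in the control only and 1 in the knockout only. Among the lower ones Hoxb4 read 7.42 in the control and 5.50 in the knockout, Hoxd8 6.46 in the control and 4.85 in the knockout, Hoxa9 6.14 in the control and 4.34 in the knockout, at least 2.65-fold lower, and Hoxc8 8.68 in the control and 3.98 in the knockout, at least 15.5-fold lower. The other measured probe set of Hoxa9 differed by only -0.14. With the floor at percentile 25 the list median moved from -1.13 to -0.40, and with no floor to -0.18. Hoxb3 differed by -0.02. Among their partners Meis1 read 6.71 in the control and 5.38 in the knockout, and Pbx2 differed by 0.01. Cdx2, a caudal gene upstream of Hox genes, read 7.88 in the control and 6.19 in the knockout, 3.24-fold lower. Nkx1-2, of the caudal neural plate and streak, read 7.11 in the control and 5.19 in the knockout, 3.78-fold lower. The mesothelial gene Upk3b read 8.51 in the control and 3.49 in the knockout, at least 13.7-fold lower, and its relative Upk1b read 7.79 in the control and 5.57 in the knockout, whereas Lrrn4, another mesothelial gene, differed by 0.14.

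Lower genes outnumbered higher ones in the blood lists, apart from the mast cell list, which held 1 of each. Of 27 measured transcription factors, 9 were lower and 2 higher. Tal1, the factor that starts blood formation, read 9.09 in the control and 7.12 in the knockout, its relative Lyl1 7.99 in the control and 5.74 in the knockout and the erythroid factor Gata1 7.19 in the control and 5.47 in the knockout. Lmo2, Gata2 and Runx1, which act with them, differed by -0.28, 0.03 and -0.06. The higher factors were Etv2, at 5.83 in control and 6.96 in knockout cells, which specifies the common precursor of blood and vessels, and Hhex, at 9.08 in control and 10.49 in knockout cells. Further down, the embryonic globin genes Hbb-bh1, Hbb-y and Hba-x were 11-fold, 12.8-fold and 20.8-fold lower, the first at 13.66 in control and 10.20 in knockout cells. Hbb-b2, an adult globin, differed by -0.67. Globin genes are close copies of each other, so their probe sets may read more than 1 of them. The median over 7 globin genes was -1.30, and it moved to -0.67 with the floor at percentile 25.

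Some red cell and platelet genes were lower too. Of 20 measured red cell membrane genes, 8 were lower and 0 higher, and over the 13 above the floor on both arrays 3 were lower, with a median of -0.19. Among them were Gypc, a glycophorin, at 7.31 in control and 4.97 in knockout cells and Tmod1, a cap of membrane actin, at 7.85 in control and 6.16 in knockout cells. In heme synthesis Alas2, the erythroid first enzyme, read 9.37 in the control and 5.28 in the knockout, while Alas1, its counterpart in other cells, differed by -0.16. Later enzymes were lower by less, with Uros at -1.06 and Fech at -0.54. The metalloreductase gene Steap1 read 9.44 in the control and 5.83 in the knockout, 12.2-fold lower. Platelet and megakaryocyte genes numbered 23 measured, 12 lower and 0 higher, with a median of -1.04. In 12 of them only the control array passed the floor, and among the other 11 the count was 7 lower and 0 higher, with a median of -1.11. Pf4, a platelet chemokine, read 9.87 in the control and 5.18 in the knockout, the platelet tubulin gene Tubb1 8.19 in the control and 4.23 in the knockout, at least 11-fold lower, and Fermt3, which activates integrins in blood cells, read 9.71 in the control and 6.33 in the knockout. The macrophage receptor gene Csf1r read 7.13 in the control and 4.90 in the knockout, while the macrophage gene Adgre1 lay near the floor at 4.93 in control and 4.93 in knockout cells.

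Endothelial genes were mostly below 0. Of 46 measured, 15 were lower and 2 higher, and 38 lay below 0, with a median of -0.53. Among receptors for vascular endothelial growth factor, Kdr and Flt4 were close on the arrays, at -0.23 and -0.07, and Flt1 differed by 0.60. The angiopoietin receptor gene Tek read 9.07 in the control and 6.63 in the knockout, its ligand gene Angpt1 7.39 in the control and 5.08 in the knockout and Tie1 6.99 in the control and 5.23 in the knockout. The junction genes Cldn5 and Cdh5 read 7.71 in the control and 4.84 in the knockout and 7.50 in the control and 5.88 in the knockout, and Pecam1 read 6.31 in the control and 5.16 in the knockout. Another junction gene, Esam, differed by -0.48. Sox17, shared by endoderm and arterial endothelium, was higher at 8.92 in control and 10.15 in knockout cells. Across the growth factor pathways of vessels and mesenchyme, 9 of 22 genes were lower and 1 higher. Pdgfa, the ligand of Pdgfra, was the higher one at 8.20 in control and 9.45 in knockout cells, and Pdgfc read 7.98 in the control and 6.28 in the knockout.

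Visceral endoderm, the nutritive epithelium around the early embryo, showed lower signals for its secreted products. Of 26 measured serum protein genes, 10 were lower and 0 higher. Afp, the fetal albumin-like protein, read 9.84 in the control and 5.20 in the knockout, the retinol carrier Rbp4 12.08 in the control and 8.88 in the knockout, the fibrinogen chain Fgb 9.18 in the control and 6.51 in the knockout and the thyroxine carrier Ttr 13.60 in the control and 11.88 in the knockout. Among lipid carriers 8 of 25 were lower and 0 higher: Apom read 10.82 in the control and 6.90 in the knockout, Apob 9.52 in the control and 7.69 in the knockout and Mttp, which loads lipid onto it, 8.60 in the control and 6.94 in the knockout, but Apoe differed by 0.09 and Apoa1 by -0.85. Lower uptake genes included the folate receptor gene Folr1 at 8.62 in control and 6.21 in knockout cells and the vitamin B12 receptor gene Cubn at 7.23 in control and 4.84 in knockout cells, and the Cubn partner Amn differed by -0.59. Among the 10 lower genes of the serum list are 2 that encode no plasma protein: Lgals2, a gut galectin, read 10.43 in the control and 5.52 in the knockout, 30.2-fold lower, and Reln, a matrix signal for migrating neurons, read 8.76 in the control and 6.36 in the knockout.

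The factors that govern that endoderm were not lower to the same degree. Hnf4a, a regulator of serum protein genes, differed by -0.35, Foxa1 by 0.30 and Sox7 by -0.50. Of 25 measured endoderm factors, 6 were higher and 2 lower, and the lower ones were Cdx2 and Maf, the latter at 9.46 in control and 8.22 in knockout cells. Definitive endoderm and foregut genes were higher in 14 of 31 cases and lower in 3, with 27 above 0 and a median of 0.93. Of the 31, 22 also stand in other lists, such as Lhx1, Otx2 and Gsc among organizer genes, so the list does not read definitive endoderm alone. The chemokine receptor gene Cxcr4 read 7.39 in the control and 9.75 in the knockout, the hormone precursor gene Trh 9.46 in the control and 11.68 in the knockout, and Nkx2-3 7.73 in the control and 9.31 in the knockout. Foxa2, an endoderm forkhead factor, differed by 0.97. The ligand of Cxcr4 differed in the opposite direction, as Cxcl12 read 8.90 in the control and 6.58 in the knockout, 5.01-fold lower, and the scavenger receptor gene for the same ligand, Ackr3, read 9.96 in the control and 8.68 in the knockout. The lower foregut genes were Nepn, at 8.92 in control and 5.83 in knockout cells, Ttr and Shh.

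Of the 19 measured organizer and Nodal pathway genes 12 also stand in other lists, such as Lhx1, Otx2 and Eomes in the streak and endoderm lists, so these lists are not separate results. The median was 1.06 over 19 genes, with 10 at least 2-fold higher and 1 lower. The ligand gene Nodal read 7.34 in the control and 8.58 in the knockout, its inhibitor Lefty1 6.10 in the control and 7.17 in the knockout, the co-receptor gene Cfc1 8.23 in the control and 9.28 in the knockout and the nuclear partner Foxh1 8.49 in the control and 9.74 in the knockout. The head organizer genes Lhx1 and Otx2 read 8.20 in the control and 10.29 in the knockout and 8.18 in the control and 10.34 in the knockout. Tdgf1, the other co-receptor gene, differed by -0.07. Furin and Pcsk6, proteases that mature the ligand, differed by 0.31 and -0.28. The receptors and transducers shared with activin were close: Acvr1b differed by -0.14, Smad2 by -0.15 and Smad4 by -0.19. Streak genes split, 10 higher and 3 lower of 23, and 9 higher and 3 lower of the 19 above the floor on both arrays. Eomes read 8.06 in the control and 9.78 in the knockout, Mixl1 5.64 in the control and 6.76 in the knockout and Mesp1 5.33 in the control and 6.40 in the knockout. The lowest was Nkx1-2 at -1.92. With the floor at percentile 65 Mixl1, Mesp1 and Nkx1-2 stood at 0.56, 0.20 and -0.86. Another 8 genes, among them Tbx6, Msgn1 and Wnt3a, lay under the floor on both arrays.

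Growth factor pathways had changed members among ligands, receptors and inhibitors. Fgf5 and Fgf8, of epiblast and streak, read 6.95 in the control and 9.13 in the knockout and 7.19 in the control and 9.28 in the knockout, while the receptor genes Fgfr1 and Fgfr2 differed by -0.15 and -0.62. Of 20 feedback genes of that pathway 5 were higher and 0 lower, such as Spred3 at 5.60 in control and 7.27 in knockout cells and Dusp6 at 8.99 in control and 10.67 in knockout cells. In the Wnt pathway 6 of 34 genes were higher and 4 lower. The higher ones were the receptors Fzd5, at 8.08 in control and 9.94 in knockout cells, and Fzd8, at 7.02 in control and 8.49 in knockout cells, and the secreted inhibitors Dkk1, Frzb, Sfrp1 and Sfrp5, at 1.47, 1.47, 1.44 and 1.14. The lower ones were Wnt2, of allantois and heart, at 7.58 in control and 5.70 in knockout cells, Dkk3 at -1.35, Dkk2 at 6.33 in control and 3.64 in knockout cells, at least 3.04-fold lower, and the Wnt-enhancing ligand gene Rspo1 at 6.07 in control and 4.20 in knockout cells, at least 2.52-fold lower. Among targets Axin2 differed by 0.49 and Sp5 by 1.65.

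Hedgehog genes past the threshold included ligands, a co-receptor and transcription factors, all lower. Of 15 measured genes, 6 were lower and 0 higher, with a median of -0.69. The ligand genes Shh and Ihh read 7.30 in the control and 6.27 in the knockout and 7.29 in the control and 6.22 in the knockout, the co-receptor gene Gas1 10.23 in the control and 9.05 in the knockout and the transcription factor gene Gli2 8.66 in the control and 7.29 in the knockout. The receptor and target gene Ptch1 differed by -0.69, and the transducer Smo by -0.05. Notch genes were more often higher, 5 higher and 1 lower of 23: the ligand genes Jag1 and Dll3 read 7.78 in the control and 9.16 in the knockout and 5.65 in the control and 7.23 in the knockout, the target Hey1 7.61 in the control and 8.91 in the knockout and the feedback gene Nrarp 7.08 in the control and 8.35 in the knockout. The lower one was Dlk1, an imprinted relative of the ligands, at 11.20 in control and 9.05 in knockout cells. In retinoic acid metabolism the degrading enzyme gene Cyp26a1 read 9.10 in the control and 11.64 in the knockout, 5.81-fold higher, the receptor gene Rarb 7.25 in the control and 8.48 in the knockout, and the synthesis gene Rdh10 differed by -0.78. The guidance genes Slit2 and Slit3 read 9.25 in the control and 7.20 in the knockout and 8.30 in the control and 6.64 in the knockout, while their receptor gene Robo1 read 7.16 in the control and 8.16 in the knockout. Of bone morphogenetic protein genes, 3 were higher and 3 lower of 27. Over the 25 above the floor on both arrays 3 were higher and 1 lower. The modulator gene Bmper stood at 7.79 in control and 9.59 in knockout cells and the ligand genes Bmp4 and Bmp2 at -0.47 and 0.74.

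Core pluripotency genes had a median of 0.17 over 35, with 3 higher and 3 lower. Nanog differed by 0.75 and Zfp42 by 0.19. Of 28 epiblast genes 9 were higher and 1 lower around a median of 0.47, among them the methyltransferase gene Dnmt3b at 10.21 in control and 11.30 in knockout cells. The 42 genes of replication and mitosis, the 30 ribosomal protein genes and the 41 respiratory chain genes held 0 members past 2-fold. Of all measured genes 2.18% were higher and 3.98% lower, and of those with a mean log2 level over 10, 0.57% and 1.32%. In lists of this size a count of 0 is near these shares. The medians of the 3 lists were 0.09, -0.01 and -0.05. Among cell cycle inhibitors Cdkn2a read 6.25 in the control and 8.06 in the knockout, 3.50-fold higher, and its neighbour Cdkn2b read 5.55 in the control and 7.49 in the knockout, whereas Cdkn1a, a target of p53, differed by 0.18. Of glutathione and detoxification genes 4 were lower and 1 higher of 28: Nqo1, a quinone reductase, read 6.77 in the control and 4.65 in the knockout, at least 4.11-fold lower, and Gpx8, of the secretory pathway, read 8.95 in the control and 7.41 in the knockout. Interferon-stimulated genes held 3 lower members of 29, Rsad2 at 8.14 in control and 5.62 in knockout cells, Ifi35 at 7.63 in control and 5.21 in knockout cells and Ifit2 at 7.18 in control and 4.53 in knockout cells, at least 5.45-fold lower, while the sensor and antigen genes Ddx58 and H2-K1 differed by 0.23 and 0.53.

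Changed genes were also placed in their order along the RefSeq assembly, on which 12263 measured genes could be placed. In 47 pairs both neighbours passed 2-fold in the same direction, and 5 runs held 3 or more such genes. The longest run was 6 measured genes on chromosome 3, all lower: Gask1b, a Golgi kinase relative, Pdgfc, the cathepsin gene Ctso, Tdo2, the soluble guanylate cyclase genes Gucy1b1 and Gucy1a1. Gask1b, at 6.32 in control and 4.64 in knockout cells, and Gucy1a1 passed the floor in the control only, so they could only be lower. Tdo2, an enzyme of tryptophan breakdown, read 10.46 in the control and 7.19 in the knockout, 9.65-fold lower, and Ctso read 8.09 in the control and 6.55 in the knockout. Gucy1b1 read 8.09 in the control and 6.89 in the knockout, and Gucy1a1, its partner subunit, read 7.28 in the control and 4.48 in the knockout, at least 5.84-fold lower. The run depends on the processing: with the floor at percentile 25, with no floor or with the mean of a gene's probe sets the longest run held 3 genes. In teratomas the knockout differed from the control by 0.57 for Ctso, 0.74 for Gucy1b1 -0.05 for Gucy1a1, -0.21 for Pdgfc and -0.87 for Gask1b, so 2 of the 5 measured there lay above 0. A higher run on chromosome 4 joined Cdkn2a, Cdkn2b and the neuronal RNA-binding gene Elavl2, the last at 7.09 in control and 8.77 in knockout cells. Another on chromosome 8 joined Irx3, the noncoding gene Crnde, which passed the floor in the knockout only, and Irx5. The other runs, both lower, were Ifi27l2b, Serpina10 and Serpina1b on chromosome 12 and Tbc1d8b, Cldn2 and Morc4 on chromosome X. All 3 genes of the chromosome 12 run passed the floor in the control only, so they could only be lower. They were at least 2.12-fold, 2.52-fold and 2.76-fold lower. Medians by chromosome lay between -0.04 and 0.08.

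**Figure D5:**
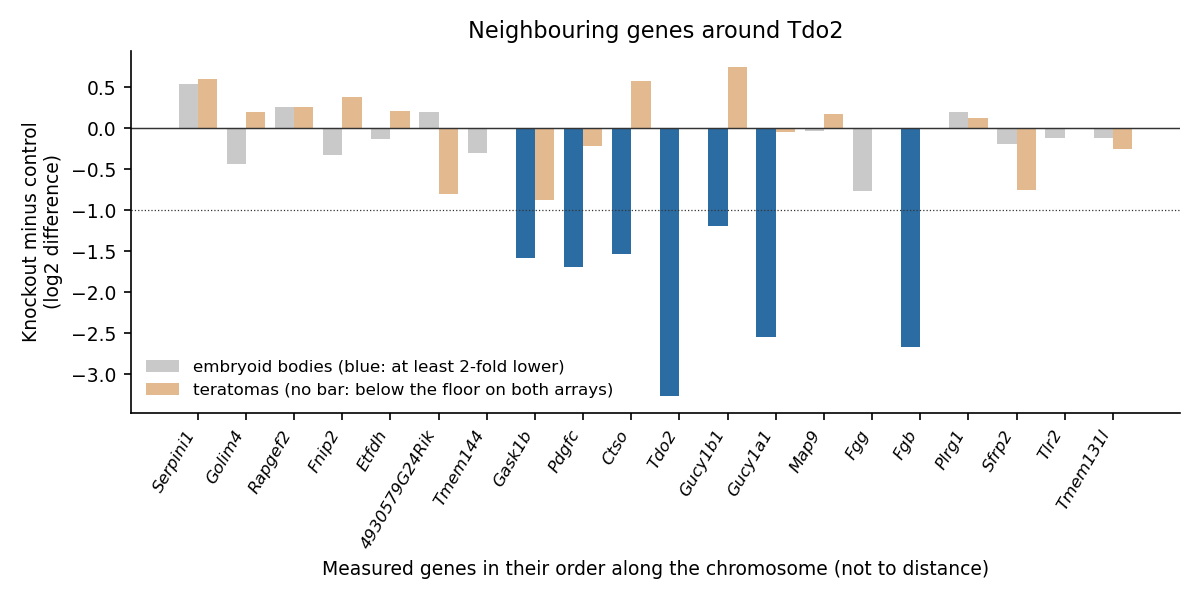
Knockout minus control log2 differences (vertical axis) of measured genes in chromosome order around Tdo2, in day 5 embryoid bodies (blue at least 2-fold lower, grey otherwise) and in week 6 teratomas (tan). The 6 genes from Gask1b to Gucy1a1 are all below -1 in embryoid bodies, while in teratomas Ctso and Gucy1b1 lie above 0.

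Large differences also fell outside the lists. On the lower side were the basonuclin genes Bnc1, at 9.36 in control and 5.07 in knockout cells, and Bnc2, at 8.79 in control and 5.02 in knockout cells, zinc-finger factors of epithelial and mesenchymal progenitors. S100g, a calcium-binding protein, read 11.10 in the control and 6.83 in the knockout, the lipid receptor gene S1pr3 8.23 in the control and 4.82 in the knockout and the teashirt factor gene Tshz1 10.01 in the control and 6.69 in the knockout. On the higher side the muscle cofactor gene Vgll2 read 7.14 in the control and 9.26 in the knockout, the secretion gene Cadps2 5.68 in the control and 7.79 in the knockout, the adhesion gene Cadm4 5.95 in the control and 8.05 in the knockout and the actin bundling gene Espn 5.09 in the control and 7.16 in the knockout. Tph1, the serotonin synthesis enzyme and a member of the mast cell list, read 4.90 in the control and 7.81 in the knockout, 7.50-fold higher. Grouped by symbol stem, 218 families had at least 8 measured members. The lowest median was that of Myl, the myosin light chains, at -0.72, and the highest that of Fgf at 0.45, followed by Trp at 0.44 and Cldn at 0.43.

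Other probe sets of a gene read the same 2 RNA samples, so they are not repeats of the cultures. Of the 268 higher genes 87 had another measured probe set, and in 84 every other one was above 0. Of 205 such lower genes 183 had every other probe set below 0. These counts take in probe sets above the floor on 1 array only, whose sign that array sets. They leave out probe sets under the floor on both arrays, so the agreement is no test of the values. The pooled SD between probe sets of a gene was 0.31, which leaves out variation between cultures. Named genes past 2-fold with another probe set of the opposite sign were Ctnnd2, Gas1, Itga3, Lats2, Slit2, Ttn and Zeb2, where that probe set stood at 0.05, 0.13, 0.46, 0.31, 0.02, 0.04 and 0.37. Among others it had the same sign and was far smaller, as for Itgb3 at -0.16, S1pr3 at -0.15, Dlk1 at -0.13 and Pax1 at 0.28. Beside Vim, Ctnnb1 and Fn1, named genes under 2-fold with another probe set past it were Fech at -1.18, Lamb1 at -1.19, Rdh10 at -1.05 and Tpm1, whose other probe sets ran from 0.17 to 1.07.

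The same contrast in week 6 teratomas was read on other RNA. Of the 489 lower genes 413 were also measured there, and 55.2% of them lay below 0, against 42.9% of all measured genes. Of the 268 higher genes 220 were measured there, and 47.3% lay above 0, against 56.9%. The median teratoma difference was -0.11 for the lower genes, -0.04 for the higher genes and 0.06 for all. Over the genes measured in both kinds of sample, 8 fibrillar collagens had medians of -2.49 in embryoid bodies and -0.76 in teratomas, 18 fibroblast markers -1.83 and -0.38, and 13 hedgehog genes -0.69 and -0.54. For 14 platelet genes the medians were -1.32 and 0.16, and for 26 definitive endoderm genes 0.95 and -0.36. The embryonic globin genes Hba-x, Hbb-y and Hbb-bh1 were under the floor on both teratoma arrays.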

How the data were processed

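RNA of 4 samples, control and Snai1 knockout embryoid bodies and teratomas, was hybridised to Affymetrix mouse arrays, 1 for each. The values are log2 signals that the authors deposited, with affy and RMA named in the submitters' processing notes without versions. RMA (robust multi-array averaging) subtracts background, equalises distributions and summarises probes, so signals near background and extreme differences are compressed. The arrays' number limits the precision. Probe sets were named through GEO's platform annotation and checked against RefSeq tables, which changed 0 symbols. Probe sets naming several genes or none were left out. A gene was read from the probe set whose mean over all 4 arrays was highest.

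Values under an array's median were set to it, and differences were computed without a test. Lists are described by counts and medians beside those of all measured genes. Python 3.11.15, pandas 2.3.3, numpy 2.4.6, statsmodels 0.14.6 (lowess) and matplotlib 3.10.9 were used, and the computation was tested on simulated data. Alternatives changed the probe set, scaling, floor, threshold and list summary. Members and lists were chosen with earlier results of these data known. Names follow a rule: the Snail family, the 40 largest differences a direction, list members past 2-fold and up to 6 others that define a list, and members of runs; examples among them were chosen for their roles after their values were seen.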

Additional observations from a re-analysis of the deposited data

Results flagged for a closer look

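Of 86 gene lists 44 had medians on opposite sides of 0 in embryoid bodies and teratomas. The 6 given here have at least 8 measured members in each kind of sample and a median farther from 0 than the pooled SD between probe sets in each, 0.31 and 0.29. The difference between the kinds of sample was not tested, since each rests on 1 array a side, and the measured members differ between them. Definitive endoderm and foregut genes had a median knockout minus control log2 difference of 0.93 in embryoid bodies and -0.37 in teratomas, and epithelial regulators had 0.64 and -0.39. Placode and cranial ectoderm genes had 0.51 and -0.32, primitive streak and nascent mesoderm genes 0.47 and -0.32, and Wnt ligands, receptors and secreted inhibitors 0.32 and -0.40. Most genes measured in embryoid bodies also stand in other lists for definitive endoderm, placode and streak, at 22 of 31, 22 of 25 and 21 of 23. Myeloid and macrophage genes had -0.38 over 18 genes in embryoid bodies and 0.41 over 29 in teratomas. In embryoid bodies 6 of the 18 passed the floor in the control only. Over the 12 above the floor on both arrays the median was -0.12, within the SD of 0.31. Over members measured in both kinds of sample the opposite signs held for 5 of the 6, with -0.37 and 0.41 for 17 myeloid genes, while 9 epithelial regulators had 0.64 and 0.018.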

How the results depend on the processing

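No paired analysis was possible because each group holds 1 array and the labels carry no replicate numbers, and for the same reason no array could be left out. With 1 array a side the spread between cultures is unknown, and signals near background limit what low genes can show. The count of higher genes, 268, and of lower genes, 489, became 169 and 310 with the floor at percentile 65, 850 and 1024 at a threshold of 1.5-fold, and 63 and 213 at 3-fold. The other alternatives, in probe set, scaling or floor, kept both counts within 1.5 times. Of 215 named genes past 2-fold, 151 passed under every alternative computed, 43 fell short with the mean of a gene's probe sets and 28 with the floor at percentile 65. Lats2 turned to 0.31 with probe sets chosen on the embryoid body arrays or with shared-sequence probe sets left out, and Ttn to 0.040 with the latter. Of 86 list medians 15 changed sign in some alternative, and 0 of the 35 whose median exceeded the SD between probe sets of 0.31 did so. List medians moved by more than that SD in 45 of 860 alternatives. A floor at percentile 25 gave -1.21 for fibroblast markers, -1.09 for fibrillar collagens, -0.67 for globin chains, -0.40 for Hox genes and 0.57 for paraxial mesoderm. A floor at percentile 65 gave -0.64 for cartilage and bone, -2.25 for fibroblast markers, -3.57 for globin chains, -0.69 for Hox genes, 0.89 for neural plate, -0.75 for PDGF and vessel signalling, 0.87 for placode, -0.19 for red cell membrane, -1.16 for serum proteins, -3.34 for small leucine-rich proteoglycans, -0.13 for visceral endoderm uptake and -0.13 for X-inactivation and Y-linked genes. Taking the mean in place of the median gave -0.83 for apolipoproteins, -0.83 for blood factors, -2.17 for fibroblast markers, -1.87 for globin chains, -0.43 for gut and secretory epithelium, -0.48 for integrins, -0.90 for matrix glycoproteins, -1.43 for platelet genes, -1.04 for serum proteins, -1.45 for small leucine-rich proteoglycans and -0.30 for trophoblast and amnion. Averaging a gene's probe sets gave -0.52 for cardiac contractile proteins, -0.37 for collagen processing, -1.41 for fibroblast markers, -2.05 for fibrillar collagens, -3.33 for globin chains, -0.15 for lateral mesoderm, 0.95 for paraxial mesoderm and -0.12 for X-inactivation and Y-linked genes. Without a floor the values were -1.18 for fibroblast markers, -0.15 for fibrillar collagens, -0.67 for globin chains, -0.18 for Hox genes and 0.30 for paraxial mesoderm. Choosing probe sets on the embryoid body arrays alone gave -0.81 for Hox genes. Leaving out probe sets with shared sequence gave -0.84 for blood factors, -2.96 for fibrillar collagens and -0.67 for globin chains. The alternatives for runs, families and promoters, and the list values over genes above the floor on both arrays or measured in both kinds of sample, were chosen after seeing the data. The longest run fell from 6 to 3 genes with the floor at percentile 25, with no floor and with the mean of probe sets, and the runs of 3 or more, 5 in number, became 8 with the floor at percentile 25, 3 with the mean and 2 without shared-sequence probe sets. Family medians moved to -0.68 for Cdh, to 1.48 for Fgf, to -0.32 for Itga, to -0.068 for Wnt with the floor at percentile 65, and to 0.066 for Cdh, to -0.24 for Itga, to -0.038 for Wnt with the mean of probe sets, and to 0.12 for Fgf, to -0.16 for S with no floor. The share of promoters of lower genes with the E-box was 12.5% without shared-sequence probe sets. The cause of these shifts was not tested.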
